A study of Mus musculus with 16 samples.

Results

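The 9 genes described here encode transcription factors that act while the spleen forms in the embryo. They are the homeobox genes Tlx1, Nkx2-5, Nkx3-2 and Barx1, the zinc finger genes Wt1 and Gata6, the basic helix-loop-helix gene Tcf21, the orphan nuclear receptor gene Nr2f2 and the T-box gene Tbx2. They were picked by symbol from the 54838 gene identifiers of the deposited count table for their known roles in development. The question asked of them is which of them are still measured in the stroma of the formed spleen, where stroma means the non-blood framework of fibroblasts, vessels, muscle, nerve and capsule.

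RNA was sequenced from spleens of C57BL/6 mice in 16 samples, as 8 size-selected samples and 8 whole spleen samples. Size-selected samples hold the pieces of minced and enzyme-digested spleen that stayed on a cell strainer after red blood cells had been lysed, a step meant to enrich the glia of the spleen, the support cells that wrap its nerves. The labels give no separate preparation for whole spleen, no age and no statement of how many mice stand behind a sample. Each group has 4 male and 4 female samples, which carry the same 8 numbers in both groups (407, 408, 427 and 435 for males, 436, 445, 447 and 460 for females). Nothing beyond these numbers says that samples of a group came from separate mice, so p-values measure the spread between samples. Total estimated counts per sample ran from 13119992 to 19944440 in the size-selected group and from 12153770 to 16282454 in whole spleen.

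The spleen arises from mesoderm beside the stomach and pancreas, in a layer known as the splanchnic mesodermal plate. As background from mouse genetics, loss of Tlx1, Nkx3-2, Wt1 or Tcf21 leaves the animal without a normal spleen, Nkx2-5 is expressed in the spleen rudiment as well as in the heart, and Barx1 patterns the mesenchyme of the stomach next to it. Wt1 and Gata6 are also known from mesothelium, the sheet of cells that covers abdominal organs, Gata6 from macrophages of the peritoneal cavity, and Nr2f2 from veins and lymphatic vessels.

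Promoters were looked up because all 9 genes lay higher in the same samples. RefSeq's table for GRCm38.p6, of 300 bases around each start (250 before and 50 after), matched 6 of the 9 by symbol, namely Tlx1, Nkx2-5, Nkx3-2, Barx1, Tcf21 and Nr2f2. For 3 of the homeobox genes, 120 bases that end just before an exon of the gene in GENCODE are shown 5′ to 3′ on the gene's strand. Capitals mark the motif matches found in these windows. The Tlx1 window is chr19:45150560-45150679 on the plus strand, that of Nkx2-5 is chr17:26841609-26841728 on the minus strand, and that of Barx1 is chr13:48662878-48662997 on the plus strand. The Tlx1 and Barx1 windows end at the annotated start of the gene. The Nkx2-5 window lies inside the annotated gene, in an intron of its longer transcript and upstream of its shorter one.
Tlx1: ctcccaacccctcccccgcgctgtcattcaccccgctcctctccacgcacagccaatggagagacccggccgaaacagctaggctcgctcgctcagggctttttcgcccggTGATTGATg
Nkx2-5: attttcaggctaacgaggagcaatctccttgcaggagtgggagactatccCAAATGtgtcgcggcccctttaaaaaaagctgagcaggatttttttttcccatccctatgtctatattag
Barx1: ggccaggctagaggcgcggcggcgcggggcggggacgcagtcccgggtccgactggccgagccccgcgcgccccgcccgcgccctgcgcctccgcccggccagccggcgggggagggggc

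The Tlx1 window holds TGATTGAT, a match to TGATTNAT, the letters bound by Pbx proteins together with a Hox partner, at 45150671 to 45150678 on chromosome 19. These letters occur on either strand in 3.22% of the 32851 promoters of the table, and in 1 of the 6 promoters matched here. The Nkx2-5 window holds CAAATG, a match to the E-box CANNTG that basic helix-loop-helix proteins such as Tcf21 bind. E-boxes occur in 72.3% of all promoters and in 4 of these 6. The Barx1 window has a GC content of 87.5%, against 64.2% for Tlx1 and 44.2% for Nkx2-5, and none of the motifs searched is written in it. Of the other motifs, searched on both strands, the GATA letters AGATAA occur in 11.2% of promoters and in 2 of the 6, Nkx3-2 and Tcf21. The homeodomain letters TAATTA (5.29% of promoters), the Nkx2 letters TNAAGTG (11.5%), the nuclear receptor letters AGGTCA (16.3%), the T-box letters GGTGTGA (3.98%) and the Wt1 and Egr type letters GCGTGGGNG (1.90%) were found in 0 of the 6. A match is a description of the letters only, and no binding was measured.

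All 9 genes were higher in the size-selected samples, by between 4.04 and 7.02 on the log2 scale, and each was higher in 8 of 8 number-matched pairs. In the same test, edgeR's quasi-likelihood test with Benjamini-Hochberg adjustment over 14510 genes, 37.5% of all genes were called higher (adjusted p under 0.05) and 30.4% lower. For each of the 9, the lowest size-selected sample lay above the highest whole spleen sample, which held for 23.4% of the genes tested. Values are given as CPM, counts scaled to a common library size by the trimmed mean of M-values (TMM). All 9 passed the filter on low counts, but 6 of them (Tlx1, Nkx2-5, Nkx3-2, Wt1, Barx1 and Tbx2) passed it through the size-selected group alone, so they had to differ to be tested at all, and their number is given as a description. In bulk RNA of this kind, fewer cells of a type and less RNA per cell cannot be told apart.

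**Figure D1:**
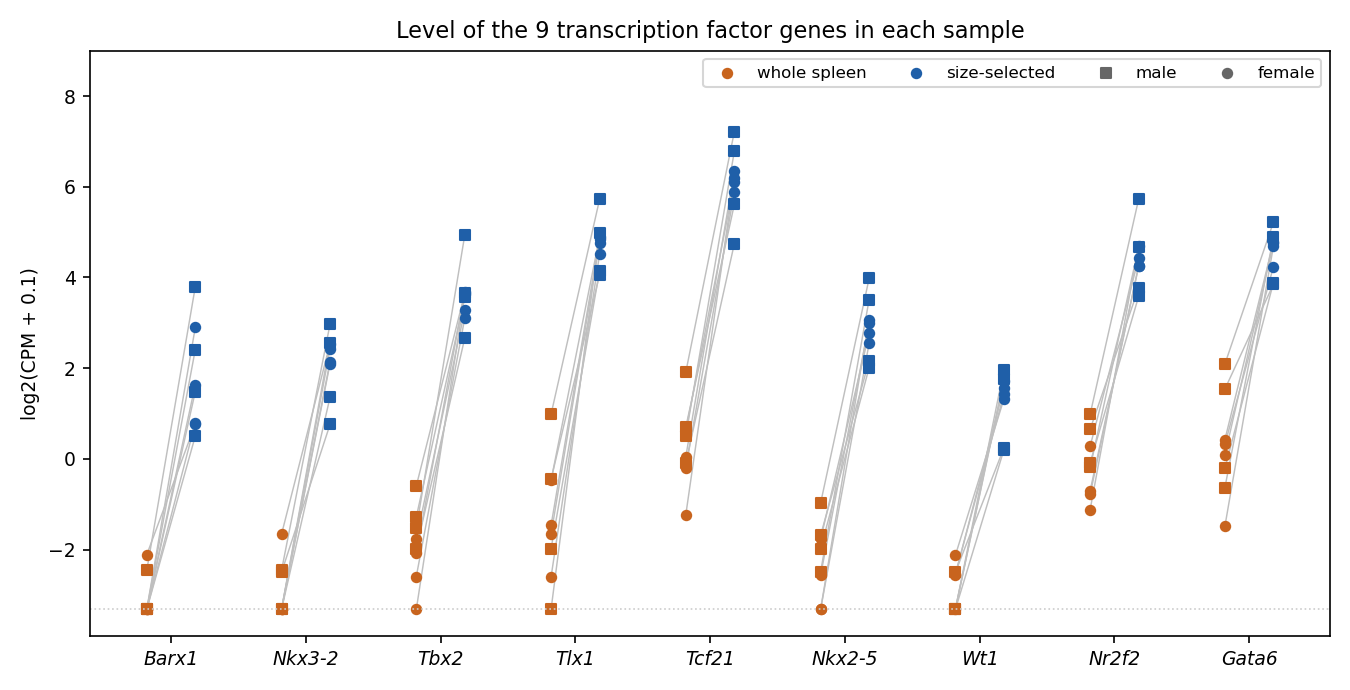
Each point is a sample, as log2(CPM + 0.1), for the 9 genes ordered by fold change, with whole spleen in orange and size-selected samples in blue. Squares are males, circles are females, grey lines join samples with the same number, and the dotted line marks 0 counts. The blue points lie above the orange points for every gene.

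Tlx1 (ENSMUSG00000025215, chromosome 19, 45150680 to 45156943, plus strand, GRCm38) encodes the homeobox factor without which the early spleen rudiment is lost. Its level in the size-selected samples was 16.6 CPM at the lowest, 27.9 at the median and 52.7 at the highest. In whole spleen the lowest was 0, the median 0.238 and the highest 1.88 CPM. The groups did not overlap, sample 427 was the highest in both, and samples 435 and 408 were the lowest of the size-selected group. Tlx1 was higher by 5.91 ± 0.49 on the log2 scale (SE, n = 8 per group, edgeR adjusted p = 6.02e-09), from a mean of 0.477 ± 0.612 to 28.3 ± 11.3 CPM (SD). Whole spleen sample 427 held 23 of the 51 Tlx1 counts of that group, and without it the difference was 6.61.

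Nkx2-5 (ENSMUSG00000015579, chromosome 17, 26838664 to 26845009, minus strand), best known as a heart factor, ran from 3.92 CPM through a median of 7.27 to 15.7 in the size-selected samples. In whole spleen it ran from 0 through 0.115 to 0.408 CPM, with 15 counts over all 8 libraries and 2 libraries at 0. Sample 427 was again the highest in both groups and the groups did not overlap. The difference was 5.80 ± 0.48 on the log2 scale (SE, edgeR adjusted p = 5.53e-09).

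Nkx3-2 (ENSMUSG00000049691, chromosome 5, 41761483 to 41764501, minus strand) marks the mesoderm from which the spleen separates from the pancreas. In the size-selected samples it ran from 1.59 CPM through 4.80 to 7.73. In whole spleen 5 of 8 libraries were at 0 and the highest held 3 counts, 0.216 CPM. A count of 0 there allows a level of up to 3 counts, which is 0.193 to 0.245 CPM depending on the library, and such limits cover counting error only. The difference was 6.45 ± 0.56 on the log2 scale (SE, edgeR adjusted p = 1.04e-08). That fold rests on 5 whole spleen counts, and it moved to 7.28 when both samples numbered 436, which include the library with 3 counts, were left out.

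Barx1 (ENSMUSG00000021381, chromosome 13, 48662998 to 48666507, plus strand), a factor of stomach and neighbouring mesenchyme, had the largest fold of the 9 with edgeR and the widest spread. In the size-selected samples it ran from 1.31 CPM through 2.84 to 13.7, so that the highest sample was 10.5 times the lowest, against 2.59 to 5.55 times for the other 8 genes. Sample 427 was the highest, followed by sample 436 at 7.35 CPM. Whole spleen held 3 counts of Barx1 in all, 2 in sample 447 and 1 in sample 427, with 6 libraries at 0. The fitted difference was 7.02 ± 0.76 on the log2 scale (SE, edgeR adjusted p = 1.87e-07). Summed over libraries, 572 counts stood against 3, a ratio of 165 with a 95% counting interval from 56.1 to 802. Without the samples numbered 447 the fitted difference was 8.06. With limma-voom in place of edgeR it was 6.03, below Tlx1 at 6.54 and Nkx3-2 at 6.14.

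Tcf21 (ENSMUSG00000045680, chromosome 10, 22817281 to 22820174, minus strand), is a factor of mesenchyme around several organs. In the size-selected samples it ran from 26.7 CPM through 70.7 to 148, with sample 435 the lowest and sample 427 the highest. In whole spleen it was counted in every library and ran from 0.327 through 1.13 to 3.67 CPM. The groups did not overlap, and the difference was 5.85 ± 0.41 on the log2 scale (SE, edgeR adjusted p = 9.90e-10).

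Wt1 (ENSMUSG00000016458, chromosome 2, 105126529 to 105173616, plus strand), is a factor of mesothelium and of kidney and spleen progenitors. It ran from 1.05 CPM through 2.72 to 3.80 in the size-selected samples, where samples 408 (1.08 CPM) and 435 (1.05 CPM) stood below the other 6, which lay between 2.39 and 3.80. In whole spleen 5 counts were found over 8 libraries, 4 of which were at 0. The difference was 5.59 ± 0.50 on the log2 scale (SE, edgeR adjusted p = 1.75e-08).

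Gata6 (ENSMUSG00000005836, chromosome 18, 11052064 to 11085635, plus strand) had the smallest fold. It ran from 14.3 CPM through 26.3 to 37.1 in the size-selected samples, where the highest was 2.59 times the lowest. In whole spleen it ran from 0.257 through 1.06 to 4.16 CPM, with a mean of 1.49 ± 1.32 (SD, n = 8). Whole spleen samples 427 (4.16 CPM) and 435 (2.80 CPM) stood above the other 6, which were at or below 1.24 CPM, and none reached the size-selected range. The difference was 4.04 ± 0.41 on the log2 scale (SE, edgeR adjusted p = 8.76e-08), and 4.44 without whole spleen sample 427. A non-coding gene on the other strand, 1010001N08Rik, shares 93 of the 6508 exonic bases of Gata6, and whether reads were counted by strand is not given in the sources used here. That gene had 4 to 35 counts in the size-selected samples, against 212 to 535 for Gata6.

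Nr2f2 (ENSMUSG00000030551, chromosome 7, 70351944 to 70366735, minus strand), a receptor of vein and lymphatic identity and of mesenchyme, ran from 11.9 CPM through 20.2 to 52.9 in the size-selected samples. In whole spleen every library held counts of it, from 0.359 through 0.808 to 1.88 CPM. Sample 427 was the highest in both groups, and the groups did not overlap. The difference was 4.67 ± 0.37 on the log2 scale (SE, edgeR adjusted p = 3.27e-09). Its antisense neighbour B130024G19Rik shares 643 of its 8625 exonic bases and had 9.10 to 34.7 counts per size-selected sample, against 172 to 738 for Nr2f2. Antisense genes also lie over Tlx1 (Tlx1os, at most 3 counts per sample) and Tcf21 (Gm10824, at most 12), but share 0 exonic bases with them.

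Tbx2 (ENSMUSG00000000093, chromosome 11, 85832551 to 85841948, plus strand), a repressor that acts on cell cycle inhibitor genes, ran from 6.25 CPM through 12.0 to 30.6 in the size-selected samples. Sample 427 stood apart at 30.6 CPM, with the other 7 at or below 12.7. In whole spleen it ran from 0 through 0.173 to 0.560 CPM, with 1 library at 0 and sample 435 the highest. The difference was 5.92 ± 0.45 on the log2 scale (SE, edgeR adjusted p = 2.02e-09).

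The 9 genes shared a pattern over the samples. In the size-selected group sample 427 was the highest for all 9, and either sample 408 or sample 435 was the lowest for all 9. Their summed level there ran from 94.2 CPM through a median of 174 to 362. In whole spleen it ran from 2.12 through 3.44 to 12.4 CPM, where 12.4 was sample 427 and the other 7 reached at most 6.52. Whole spleen sample 427 was also the highest of its group for the summed fibroblast and reticular markers (101 CPM, against 12.9 to 37.6 in the others), smooth muscle markers (102 CPM, against 15.7 to 70.7) and endothelial markers (230 CPM, against 86.1 to 134). Its part in the members' levels in whole spleen was not tested. All 9 differences were called without this library.

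Gata6 and Nr2f2 had smaller folds than Tcf21. For these 3 genes, the ones with counts in every whole spleen library, the difference in log2 CPM was taken within each number, a comparison chosen after their values had been seen. The mean within-number difference was 5.78 ± 0.85 for Tcf21 (SD, n = 8), 4.49 ± 0.83 for Nr2f2 and 4.22 ± 1.20 for Gata6. Tcf21 exceeded Nr2f2 by 1.29 ± 0.90 in 8 of 8 numbers (SD, exact sign-flip test, two-sided, p = 0.00781, the smallest that 8 pairs allow, unadjusted over 3 comparisons). Tcf21 exceeded Gata6 by 1.56 ± 1.08 in 7 of 8 numbers (exact p = 0.0156). Nr2f2 and Gata6 were not separated, with a difference of 0.27 ± 1.08 (exact p = 0.5). Gata6 carries a constant, described next, and with the constants divided out Tcf21 exceeded Gata6 by 1.26 ± 1.09 (exact p = 0.0156), while Nr2f2 less Gata6 turned to -0.03 ± 1.09 (exact p = 0.930).

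**Figure D2:**
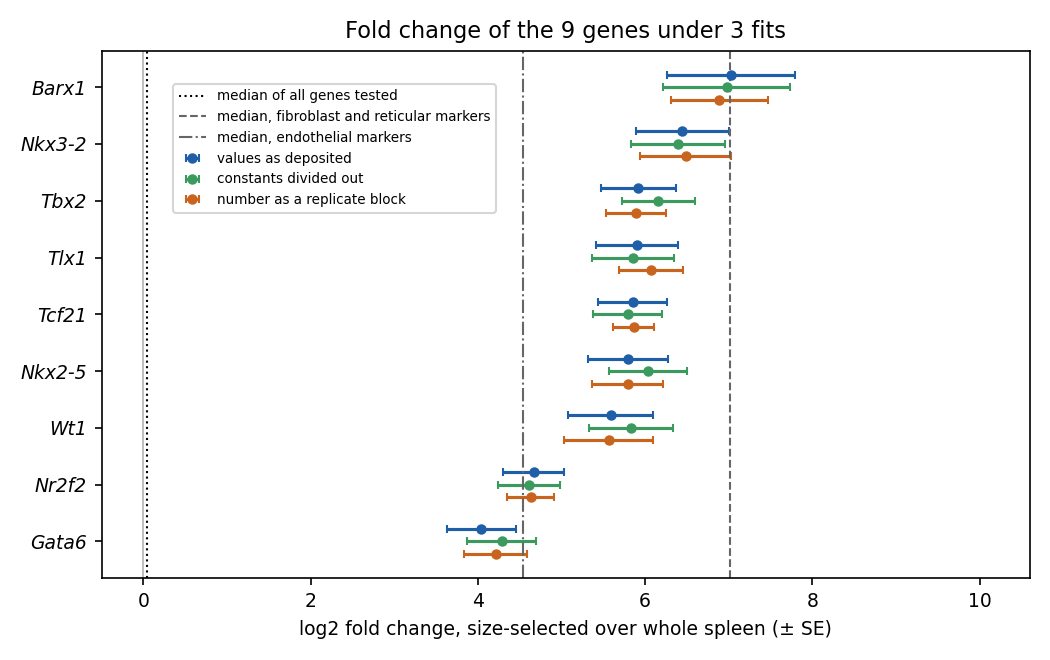
Log2 fold change of size-selected over whole spleen for the 9 genes, with the SE as bars (n = 8 per group), from the values as deposited (blue), after division by the constants found in the size-selected columns (green) and with the sample number as a replicate block (orange). Vertical lines mark the median of all genes tested (0.05), of the endothelial markers (4.54) and of the fibroblast and reticular markers (7.02); the 9 genes lie between 4.04 and 7.02 as deposited.

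The deposited size-selected values of 3898 genes are whole or 2-decimal numbers multiplied by constants, and 4 of the 9 genes (Nkx2-5, Wt1, Gata6 and Tbx2) carry a constant of 0.770 to 0.858, depending on the sample. With the constants divided out, the difference became 6.03 for Nkx2-5, 5.83 for Wt1, 4.28 for Gata6 and 6.16 for Tbx2 on the log2 scale, each higher than as deposited, and all 9 stayed called. In the authors' deposited table of 2201 genes, whose lowest log2 fold change is 3.50, all 9 are listed. The authors' deposited table gives them log2 fold changes between 3.93 for Gata6 and 7.38 for Barx1. With the number as a replicate block all 9 were called too, by 4.21 for Gata6 to 6.88 for Barx1.

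To set levels of different genes side by side, CPM were divided by the kilobases of annotated exon. In the size-selected samples the mean was 32.7 ± 16.03 CPM per kb for Tcf21 (SD, n = 8), 13.2 ± 5.27 for Tlx1 and 4.64 ± 2.26 for Nkx2-5. Then came Gata6 at 3.73 ± 1.21, Tbx2 at 3.59 ± 2.06, Barx1 at 3.26 ± 3.04, Nr2f2 at 2.73 ± 1.49 and Nkx3-2 at 2.70 ± 1.14. Wt1 was the lowest at 0.408 ± 0.162 CPM per kb. Tcf21 exceeded Tlx1, Tlx1 exceeded Nkx2-5, and Nkx3-2 exceeded Wt1 in 8 of 8 samples each (exact sign-flip test, two-sided, p = 0.00781, unadjusted over the 8 neighbouring pairs). From Nkx2-5 to Nkx3-2, no gene separated from its neighbour in the order beyond the spread between samples (exact p from 0.109 to 0.906), but genes farther apart did. Nkx2-5 exceeded Nr2f2 and Nkx3-2 in 8 of 8 samples each (exact p = 0.00781, unadjusted over the 15 pairs of these 6 genes). With the constants divided out, Tbx2 exceeded Barx1 in 7 of 8 samples (exact p = 0.0391).

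The order differed between the 2 scales at hand, and the cause was not tested. The authors' deposited table, which gives TPM as a mean per group, lists Tcf21 at 88.1, Tlx1 at 19.1, Nr2f2 at 12.7, Gata6 at 12.2 and Nkx2-5 at 8.90 TPM in the size-selected group. It lists Tbx2 at 5.44, Barx1 at 4.55, Nkx3-2 at 3.69 and Wt1 at 1.82 TPM. Tcf21 and Tlx1 lead and Wt1 is last on both scales, while Nr2f2, whose annotated exons sum to 8625 bases, moves from rank 7 to rank 3. Nr2f2 lies above Nkx2-5 in TPM, the reverse of their order per kb of exon, so the difference of this pair holds only on the scale of CPM per kb. In whole spleen the means were 0.577 CPM per kb for Tcf21, 0.228 for Gata6 and 0.223 for Tlx1, and 0.108 or lower for the other 6. Without whole spleen sample 427 the mean was 0.130 for Tlx1, 0.169 for Gata6 and 0.436 for Tcf21.

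**Figure D3:**
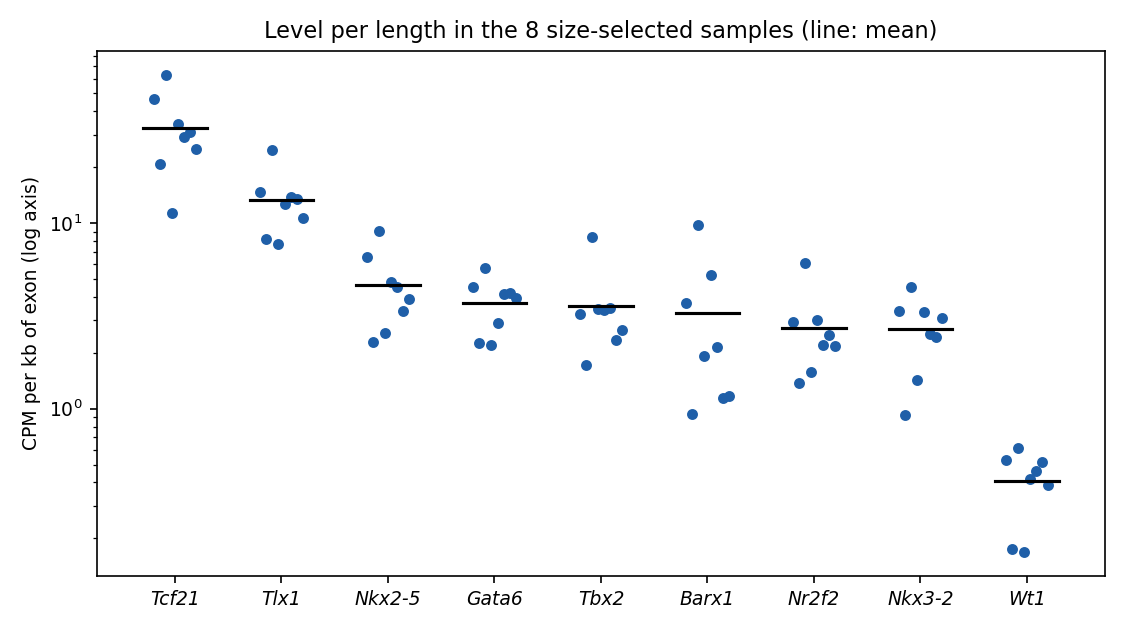
CPM per kb of exon, on a log axis, for the 9 genes in the 8 size-selected samples, with a point per sample and a line at the mean. Tcf21 (mean 32.7) and Tlx1 (mean 13.2) lie above the rest, 6 genes have means from 2.70 to 4.64 with overlapping samples, and Wt1 (mean 0.408) lies lowest.

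Other genes that work beside these factors in the forming spleen were examined next. Of 19 such genes, 11 passed the filter, 10 of them were called higher and 0 lower, with a median difference of 4.62 on the log2 scale against 0.05 for all genes tested, of which 37.5% were called higher. Of the 11, 5 passed the filter only through the size-selected group and had to differ to be tested. Of the 6 that pass it in whole spleen alone, 5 were called higher. Of these 5, Nkx2-3, a homeobox factor of spleen vessels, had 49.4 ± 16.1 CPM against 2.02 ± 1.17 (SD, n = 8), a difference of 4.62. Nr5a1, the nuclear receptor of steroid tissues and spleen vessels, had 69.3 ± 22.6 against 4.03 ± 2.48 CPM, a difference of 4.11. Foxf1, a forkhead factor of gut mesenchyme, and the signalling protein gene Bmp4 passed the filter only through the size-selected group. Foxf1 was higher by 6.98 (7.85 without whole spleen sample 427) and Bmp4 by 7.94.

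Pbx2 and Pbx3 encode proteins that pair with homeobox factors. Pbx3 was higher by 1.36 on the log2 scale. Pbx2 had 8.26 ± 1.74 against 8.29 ± 1.21 CPM and was not called (log2 difference -0.01 ± 0.15, edgeR adjusted p = 0.970). Meis1 and Meis2, partners of Pbx proteins, were higher by 3.93 and 4.91. Foxf2, Gata4, Gata5, Isl1, Sox11, Fgf9 and Fgf10 were below the filter, with size-selected means of at most 0.579 CPM.

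Of 14 paralogs of the 9 genes, 4 passed the filter and 4 were called higher, against 37.5% of all genes tested. Only Nr2f6 passes it in whole spleen alone, so for the other 3 the call follows from the filter and is a description. On the log2 scale Msc, a relative of Tcf21, was higher by 5.56, Tbx3 by 5.32, Tcf15 by 4.56 and Nr2f6 by 1.53. Tbx3 had 18.2 ± 6.46 CPM in the size-selected samples against 0.445 ± 0.393 in whole spleen. Tlx3 had no count in any of the 16 samples, and Tlx2 and Nkx2-6 had means of at most 0.0249 CPM in either group. Nr2f1, the paralog closest to Nr2f2, had a size-selected mean of 0.837 CPM, and reads that fit both genes could have been split between them.

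Genes known to act downstream of the 9 were examined as a list of 15, of which 11 passed the filter and 11 were called higher, with a median difference of 3.57, against 37.5% of all genes called higher and a median of 0.05 over all. Of the 11, 9 pass the filter in whole spleen alone, and 9 of these were called higher. The list holds genes of retinoic acid metabolism, which Tlx1 is known to restrain in the forming spleen: Rdh10 was higher by 3.34, Aldh1a2 by 2.83 and Aldh1a1 by 2.79. The retinoic acid receptor gene Rarb, which passed the filter only through the size-selected group, was higher by 3.57, and by 5.43 without whole spleen sample 427. Podxl, a sialomucin gene that Wt1 activates in the kidney, was higher by 5.41. The cell cycle inhibitor genes that Tbx2 is known to repress were higher by 2.09 for Cdkn1a, while Cdkn2a stayed below the filter at 0.250 ± 0.255 against 0.0860 ± 0.166 CPM (SD, n = 8). Cdkn2b, a related inhibitor, was higher by 1.66. Of the vessel genes tied to Nr2f2, Ephb4 was higher by 4.96, Prox1 by 4.36 and Nrp2 by 3.63. Cyp26b1, also on the list, stayed below the filter at a mean of 0.756 against 0.0579 CPM. Regulation of these genes by the 9 factors was not tested.

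**Figure D4:**
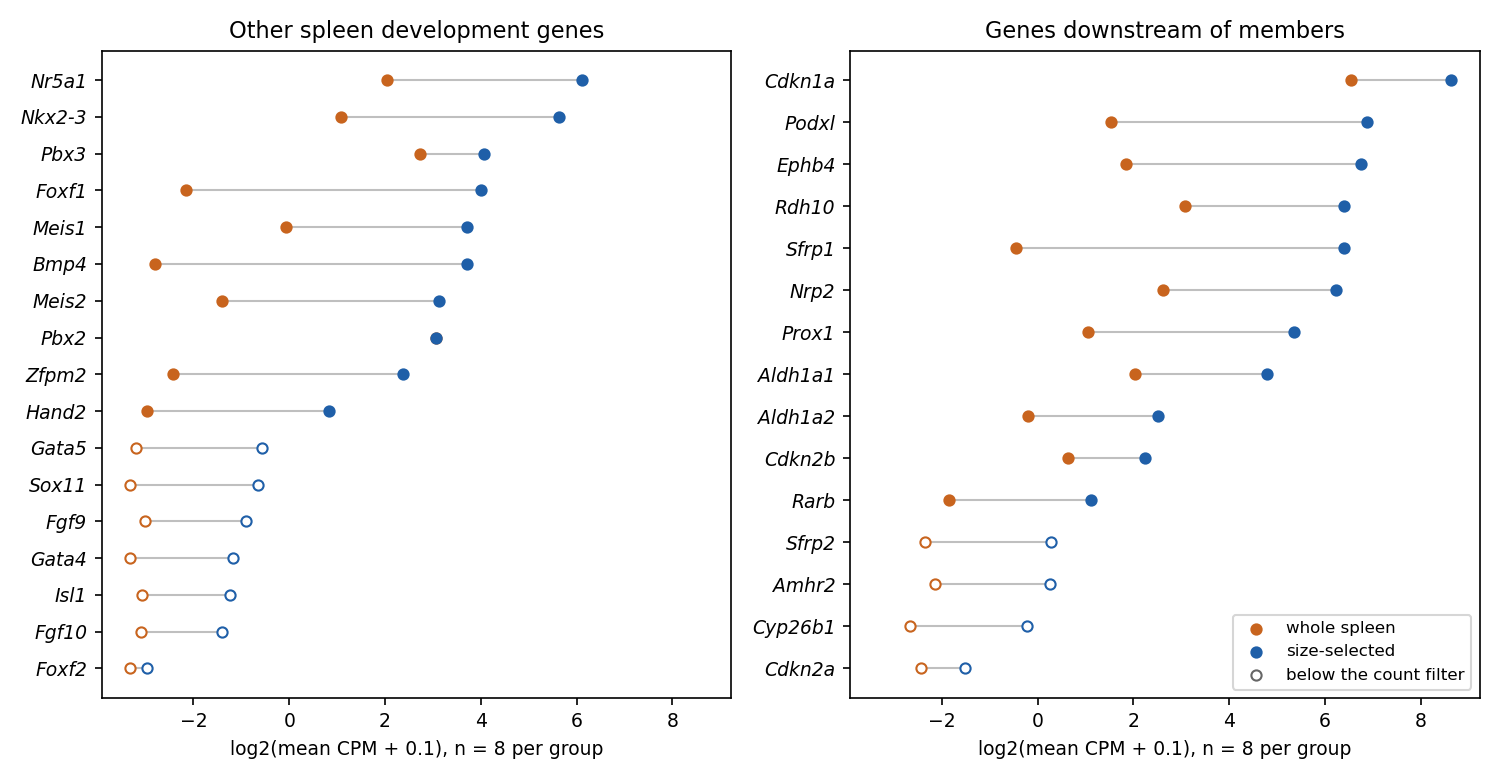
Mean level per group (n = 8 each), as log2(mean CPM + 0.1), for other spleen development genes and for the 15 downstream genes, whole spleen in orange and size-selected in blue. Open circles are genes below the count filter. The genes drawn with filled circles were called higher, except Pbx2, whose points coincide.

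Markers of other cell types moved with the 9 genes between the groups. Called higher were 7 of 7 tested mesothelial markers (median difference 5.94), 10 of 10 fibroblast and reticular markers (7.02), 7 of 7 smooth muscle markers (6.48), 8 of 8 endothelial markers (4.54), 7 of 7 glia markers (7.87) and 3 of 4 lymphatic endothelial markers (4.24). As for the 9 genes, many of these passed the filter only through the size-selected group, namely 7 of the 7 mesothelial markers, 6 of the 7 glia markers, 2 of the 10 fibroblast and reticular markers and 1 each of the smooth muscle, endothelial and lymphatic endothelial markers, so their counts and medians are descriptions. Their summed levels did not overlap between groups, for mesothelial markers 44.5 to 275 CPM against 0.686 to 4.30, and for fibroblast and reticular markers 1785 to 5851 against 12.9 to 101 CPM. Of the 14510 genes tested, 37.5% were called higher and 30.4% lower, and 23.4% had every size-selected sample above every whole spleen sample. Of the blood lineages, 4 of 5 B cell, 4 of 5 T cell, 4 of 5 neutrophil and 2 of 5 erythroid markers were lower. Higher were 5 of 5 megakaryocyte and 4 of 6 red pulp macrophage markers. Of the adipocyte markers 4 of 6 were below the filter, among them Adipoq at 0.124 against 0.0572 CPM. Of the pancreatic acinar markers 7 of 8 were below it. Among those tested, 2 of 2 adipocyte markers (Fabp4 and Lpl) and 0 of 1 pancreatic acinar marker were higher. Of the genes that respond to tissue dissociation, 8 of 10 were higher. The gene of that last list called lower as deposited, Ier2, carries a constant and was not called with it divided out (log2 difference 0.01, edgeR adjusted p = 0.928). With the replicate block 4 of 5 erythroid markers were lower, 5 of 5 B cell markers, 5 of 5 neutrophil markers, and the 1 pancreatic acinar marker and 1 T cell marker were called higher. With the constants divided out 1 of 5 erythroid markers was lower. The part of these cell types in the levels of the 9 genes was not tested.

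Large peritoneal macrophages also express Gata6, so their markers are given beside it. Of 8, 6 passed the filter and 4 were higher (Timd4 by 3.21, Garnl3 by 3.27, Naip1 by 4.46 and Lyz1 by 2.66), while Icam2 (0.08) and Prg4 (0.10) were not called. Naip1 passed the filter only through the size-selected group, and its difference was 5.41 without whole spleen sample 427. Icam2 carries constants, and with them divided out it was called higher, by 0.79 (edgeR adjusted p = 0.000106). Prg4 stood at 0.887 CPM in the size-selected samples and 0.832 in whole spleen, and Saa3 at 0.107 and 0.164 CPM. The summed level of the 8 was 291 to 794 CPM against 104 to 143. Their part in the Gata6 difference was not tested.

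Within the size-selected group, the levels of the 9 genes were set against 5 marker scores, each the mean log2 CPM of a list's tested genes, over the 8 samples. Of 45 such relations, 18 had an exact permutation p under 0.05 for Pearson's r, and 12 had an adjusted p under 0.05 (Benjamini-Hochberg over 211 relations computed). By Spearman's rho 3 of the 45 did: Nkx3-2 with the fibroblast and reticular score, Nkx3-2 with the smooth muscle score and Gata6 with the endothelial score. The endothelial score gave 7 of the 12. With it, Wt1 had r = 0.95 (rho = 0.88, exact permutation p = 0.00102, adjusted p = 0.0169), Tlx1 r = 0.93, Gata6 r = 0.93 (rho = 0.90) and Tcf21 r = 0.92, and r was 0.74, 0.90, 0.74 and 0.79 in that order without the 2 samples farthest from the median score.

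The fibroblast and reticular score gave 4 of the 12, with Nr2f2 (r = 0.88), Nkx3-2 (r = 0.87), Nkx2-5 (r = 0.86) and Barx1 (r = 0.84), and the smooth muscle score gave 1, with Nkx3-2 (r = 0.86). Without the 2 samples farthest from the median score, Barx1 fell to r = 0.44 and the other 3 stayed between 0.82 and 0.92. Neither the mesothelial nor the glia score gave any. Wt1, a known mesothelial gene, had r = 0.61 with the mesothelial score (rho = 0.17, exact permutation p = 0.117, adjusted p = 0.207). With the glia score r ran from -0.29 for Gata6 to 0.60 for Barx1, and without the 2 samples farthest from the median score it was below 0 for 9 of 9, from -0.94 for Wt1 to -0.07 for Tbx2, so that 7 of 9 changed sign. With the mesothelial score 4 of 9 changed sign in that way. The tested partner, paralog and downstream genes were set against the same scores. With the endothelial score their r ran from 0.16 for Rarb to 0.98 for Nkx2-3. With the fibroblast and reticular score it ran from 0.26 for Pbx2 to 0.97 for Bmp4.

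The relations of the 9 genes rest on few samples, and the scores shared some of them. Sample 427 was the highest for the endothelial (7.52), fibroblast and reticular (8.71) and smooth muscle (8.16) scores. The lowest was sample 435 for the endothelial (6.03) and the fibroblast and reticular score (7.06), and sample 408 for smooth muscle (5.94). The relations to these scores were not tested apart from each other. Without size-selected sample 408, or without size-selected sample 427, 0 of the 45 had an adjusted p under 0.05. The count was 7 without sample 407, 6 without sample 435 and 5 without sample 445, and 10 to 12 without any other. With males alone or females alone, a correlation over 4 samples would be imprecise, so no value within a sex is given.

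Among themselves the 9 genes gave 36 pairs, all with r above 0, from 0.47 for Barx1 with Gata6 to 0.96 for Tlx1 with Nr2f2 (median 0.84), and 24 had an adjusted p under 0.05 for r, against 10 for rho. By r, Nkx2-5 reached it with all 8 others, Tbx2 with 2 (Nkx2-5 and Barx1) and Barx1 with 3, and by rho with 4, 0 and 1. The closest pairs after Tlx1 with Nr2f2 were Nkx2-5 with Nr2f2 (r = 0.93) and Wt1 with Gata6 (r = 0.93). Without size-selected sample 408 the 24 became 0, and without sample 427 they became 1, with a median r of 0.81 and 0.76. They became 10 without sample 407 and 13 without sample 445, and were 16 to 20 without any other. Pairs among other genes were not computed, so no share over all genes stands beside these counts.

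**Figure D5:**
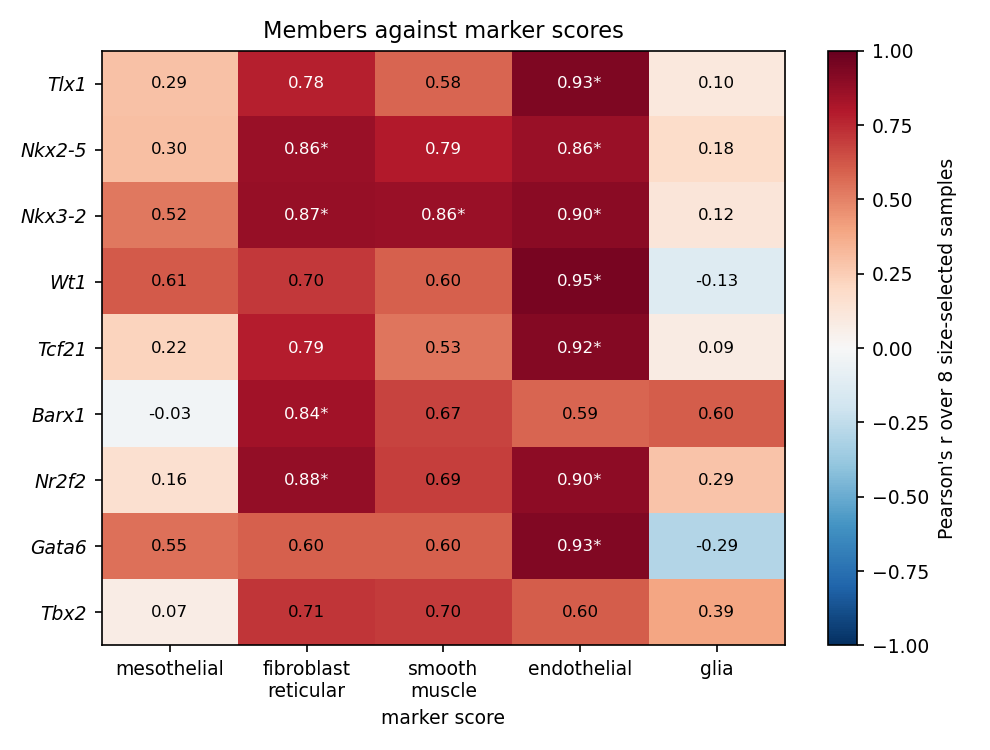
Pearson's r of each of the 9 genes (rows) with 5 marker scores (columns) over the 8 size-selected samples, coloured from blue (-1) to red (1). A star marks an adjusted p under 0.05, which 7 genes reach with the endothelial score, 4 with the fibroblast and reticular score, 1 with the smooth muscle score and 0 with the mesothelial or glia score.

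The genes whose log2 CPM followed 8 of the 9 most closely over the 8 size-selected samples were taken from 12897 genes, as a description. They were Thsd1 for Tlx1 (r = 0.99, rho = 0.93), Kdelc2 for Nkx3-2 (r = 0.99, rho = 0.98) and Prrg1 for Barx1 (r = 0.97, rho = 0.98). For Tcf21 it was Atp5s (r = 0.98, rho = 1), for Wt1 Pgm2 (r = 0.98, rho = 0.90), for Gata6 Hap1 (r = 0.99, rho = 0.98), for Nr2f2 Uevld (r = 1.00, rho = 0.98) and for Tbx2 Thra (r = 0.98, rho = 0.93). The genes share the same 8 libraries, and no test was made of these values.

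No difference between the sexes was called for any of the 9. In the size-selected samples 0 of 9 were called between females and males (4 each, edgeR adjusted p = 0.999 for each), where 0.0397% of 15127 genes were, and 632 genes had an unadjusted p under 0.05. The 6 genes called became 22 with DESeq2, and the 632 became 1851 without sample 427, 1042 without 408, 353 without 460 and 1003 without the filter. On simulated data for this comparison, 40 of 211 DESeq2 calls were false, against 11 of 167 for edgeR. The log2 difference of females from males ran from -0.73 ± 0.70 for Barx1 to 0.25 ± 0.43 for Wt1 (SE). Tlx1 had 27.0 ± 3.05 CPM in females and 29.6 ± 16.8 in males (SD, n = 4). The male samples held both the highest sample, 427, and the lowest, 408 and 435, so the ranges of the females lay within those of the males for all 9.

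In whole spleen only Tcf21, Nr2f2 and Gata6 passed the filter, and 0 of 3 were called (0.194% of 13383 genes were, and 2149 had an unadjusted p under 0.05). That background of 26 genes was unstable: it was 261 without whole spleen sample 427, 87 without 436, between 7 and 17 without 407, 435, 445, 447 or 460, 273 without the filter and 518 with DESeq2. The 2149 moved too, from 1420 without sample 445 to 2909 without 427, and to 3008 without the filter. The log2 difference of females from males was -1.08 ± 0.56 for Tcf21, -1.002 ± 0.524 for Nr2f2 and -1.20 ± 0.66 for Gata6 (SE, edgeR adjusted p = 0.363, 0.364 and 0.387). The size of the difference between the fractions was not called different between the sexes for any of the 9 (edgeR adjusted p = 1.00 each), nor for any of 15760 genes, 744 of which had an unadjusted p under 0.05 (1810 without the samples numbered 427, 1278 without the filter). In that test 3 genes were called with DESeq2, 3 with the replicate block and 1 without the samples numbered 445, and 0 of the 9 in any of these. Fitted in males alone and in females alone, all 9 genes were higher in the size-selected samples, by 3.45 in males and 4.76 in females for Gata6.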

How the data were processed

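RNA was sequenced in 8 size-selected and 8 whole spleen samples of mouse. The submitters' processing notes name Trim Galore, STAR, RSEM, DESeq and the build mm10, with no versions. The deposited table holds the authors' estimated counts per gene, which were rounded to whole numbers for the tests. The authors' deposited table of comparisons holds, per the file headers, a mean signal (base mean), a log2 fold change, a test score, p-values, and TPM and FPKM as group means (the FPKM were not used here).

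Genes were filtered with edgeR 4.0.16 (filterByExpr, minimum count 10), normalized by TMM and tested with its quasi-likelihood test at an adjusted p of 0.05, by group alone. CPM come from unrounded counts, and log2 CPM (prior count 2) from the rounded counts. Correlations used all 40320 orders of 8 samples, in scipy 1.17.1. DESeq2 1.42.0, limma 3.58.1, other scalings, no filter, restored counts, a replicate block and leaving out each number were alternatives, as were 2 added after seeing the data (restored counts with the block, and with library totals). The edgeR, DESeq2 and limma fits of each comparison, and the block fit of the 2 groups, were tested on simulated data. Of simulated log2 changes of 2, edgeR recovered 96.3% between the groups and 68.2% for the interaction of sex and fraction. Between the sexes it recovered 83% in size-selected samples and 89.8% in whole spleen. In whole spleen 24 of 196 DESeq2 calls between the sexes were false, against 11 of 179 for edgeR.

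Samples with the same number deviated together from their group means (r from 0.12 to 0.38, mean 0.21, against -0.03 for different numbers, over 8 pairs), and the pairing comes from the number in the labels. Exon lengths and positions come from GENCODE of build GRCm38, the assembly that mm10 names, and 54723 of 54838 identifiers matched it. Of a symbol with several rows, the row with the highest total was used. The text names all 9 members, any gene of the partner, paralog, downstream and marker lists, and the gene closest to a member by r, except a few genes that are not reported here. The members and lists were chosen with earlier results of these data known.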

Additional observations from a re-analysis of the deposited data

Results flagged for a closer look

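In 2 of 28 groups of 8 samples screened (the 9 genes and the 5 marker scores in each group), a sample stood far from the others relative to the range of its group, where chance would give about 1.4. Tbx2 in size-selected sample 427 had a log2 CPM of 4.94, with the next sample at 3.68 and the lowest at 2.67, a gap of 0.557 of the range. The fibroblast and reticular score in whole spleen sample 427 was 2.80, with the next sample at 1.12 and the lowest at -0.22, a gap of 0.554 of the range.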

How the results depend on the processing

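All 9 genes were called higher under each of the 21 alternatives, with the direction kept in 189 of 189 gene and alternative combinations, and 0 members were called for sex or for its interaction with fraction under any alternative run. The replicate block, fitted because the numbers pair the samples, called 9 of 9 and changed no member's call. Leaving out each number in turn called 9 of 9 each time. Barx1 moved most, from 6.03 with limma-voom to 8.06 without the samples numbered 447, and the largest adjusted p over all alternatives was 0.00136, for Gata6. Unscaled library totals moved the median of all genes by 0.13 on the log2 scale. With each size-selected sample left out in turn, the 12 relations to marker scores with an adjusted p under 0.05 became 0 to 12, with 0 without sample 408 or 427, 7 without 407, 6 without 435 and 5 without 445. In whole spleen, 6 of the 9 genes rest on at most 51 counts over 8 libraries, so their folds are imprecise, and the cause of their moves between alternatives was not tested.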
